A study of Mus musculus with 4 samples.

Results

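Gzmk-positive CD8 alpha beta T cells were taken from libraries of CD45+ cells, the immune cells that descend from blood stem cells, sorted from the crypts of the mouse small intestine. A barcode counted as such a cell when it had at least 300 genes, at most 10% mitochondrial UMIs, at least 1 UMI each of Cd8a, Cd8b1 and Gzmk and of any of Cd3e, Cd3d and Cd3g, and 0 UMIs of Trdc, Cd4, Cd79a and Siglech. A UMI is 1 counted messenger RNA molecule. This rule was met by 1904 of the 68260 barcodes. Control replicates 1 and 2 held 109 and 147 of them, and 849 and 799 came from cystine replicates 1 and 2. The level of Gzmk chose the cells, so Gzmk itself is described without a test; Ly6a and Ccl5, which were named with the cells as their markers from earlier results, are described in the same way. Counts of called genes hold these 2 where they passed, and no p-value is printed for them.

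The samples came from mice fed a control diet (2 samples) or a diet high in cystine, the oxidised dimer of the amino acid cysteine (2 samples). Both groups have the genotype entry Male and name no allele, strain, age or duration of the diet, and the labels name no batch or date. The groups follow the sample titles, because the treatment entry reads Control for all 4 samples. Nothing in the labels says whether a sample is 1 mouse or a pool, or that the samples are separate animals, so a p-value here covers only how far these 4 libraries differ, which may be technical. By the series title, the comparison asks how dietary cysteine acts on CD8 T cells and the cytokine IL-22.

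CD8 alpha beta T cells recognise peptides on class I molecules through an alpha beta receptor, and the CD8 alpha beta dimer steadies that contact. In the gut wall such cells settle as resident memory or effector cells, next to natural intraepithelial T cells, which mostly carry the CD8 alpha homodimer and innate signalling adaptors. Gzmk encodes granzyme K, a trypsin-like serine protease of cytotoxic granules, and it marks CD8 T cells that also make chemokines. Granzymes A and B, encoded by Gzma and Gzmb, are the granzymes best known from killer cells.

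Gzmk and Gzma lie on the same strand of the same chromosome, and their upstream windows are shown because the former chose the cells and the latter is the granzyme with the highest level in them. The RefSeq windows (GRCm38.p6, minus strand) hold the 250 bases before each start, at chr13:113180966-113181215 for Gzmk and chr13:113100982-113101231 for Gzma. Capitals mark a T-box match (GGTGTGA, either strand) or a RUNX match (TGTGGT, either strand), the letters bound by factors that act in cytotoxic T cells. The T-box letters stood 75 bases before the start of Gzmk, and the RUNX letters stood on the opposite strand, 50 bases before the start of Gzma.
Gzmk: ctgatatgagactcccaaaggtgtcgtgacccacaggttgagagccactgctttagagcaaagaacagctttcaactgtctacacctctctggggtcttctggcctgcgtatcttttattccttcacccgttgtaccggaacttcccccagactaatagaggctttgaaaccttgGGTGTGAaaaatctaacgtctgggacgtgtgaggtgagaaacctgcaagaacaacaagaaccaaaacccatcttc
Gzma: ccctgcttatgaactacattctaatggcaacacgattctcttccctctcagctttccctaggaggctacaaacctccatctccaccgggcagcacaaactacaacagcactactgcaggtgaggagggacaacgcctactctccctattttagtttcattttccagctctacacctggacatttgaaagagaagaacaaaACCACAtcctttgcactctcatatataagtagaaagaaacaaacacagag
Of 32851 RefSeq windows of this length, 3.33% held the T-box letters and 14.05% the RUNX letters, and neither motif overlaps the other in these windows. A match is a description of the sequence.

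The members carried 204238, 349484, 1334649 and 1451089 UMIs in all (control replicate 1, control replicate 2, cystine replicate 1, cystine replicate 2), an order kept wherever 4 values are listed. Their median depth was 1703, 2004, 1403 and 1660 UMIs per cell and 895, 979, 811 and 904 genes. Between 334 and 451 kept barcodes were shared by any pair of libraries, and 0 of them were members in both. Genes listed for other cell types were detected in members. Epithelial defence genes (Paneth and goblet cell list) summed to 44.1, 28.6, 419 and 687 CPM (UMIs scaled to a common library total), with 14, 14, 5 and 3 of 18 genes at 0. Enterocyte genes summed to 397, 2212, 179.8 and 338 CPM, B cell genes to 1249, 1119, 1053 and 313 CPM and myeloid genes to 338, 426, 369 and 185 CPM. Plasma cell genes summed to 83.2, 71.5, 104 and 91.0 CPM, NK cell genes to 421, 415, 291 and 276 CPM, and CD4 helper and regulatory genes to 191, 155, 189 and 157 CPM. Whether the members or other cells made the RNA of each list was not tested, nor was the part of these sums in the differences below.

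Gzmk-positive cells formed a larger share of CD8 alpha beta T cells in both cystine samples than in both controls. They made up 109 of 589 CD8 alpha beta cells (18.5%, exact 95% interval 15.4% to 21.9%) and 147 of 514 (28.6%, 24.7% to 32.7%) in the controls. In the cystine samples they made up 849 of 1380 (61.5%, 58.9% to 64.1%) and 799 of 1430 (55.9%, 53.3% to 58.5%). The means were 23.6% ± 7.14 and 58.7% ± 3.99 (SD, n = 2 each), a ratio of 2.49, and the groups did not overlap. The share was part of what chose these cells, so it stands as a description without a test. Intervals cover counting error only.

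As a share of all kept barcodes, members were 0.648% and 0.956% on the control diet but 4.40% and 4.82% on cystine. The means of 0.802% ± 0.218 and 4.61% ± 0.298 differ 5.75-fold, which is a description as well. The remaining CD8 alpha beta cells, those without a Gzmk UMI, numbered 480, 367, 531 and 631, so the number without Gzmk differed by less between the diets than the number with it. With every cell thinned to 1000 UMIs, which leaves out shallower cells, the share of CD8 alpha beta cells was 13.8%, 19.8%, 52.3% and 45.9%, and the groups again did not overlap.

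**Figure D1:**
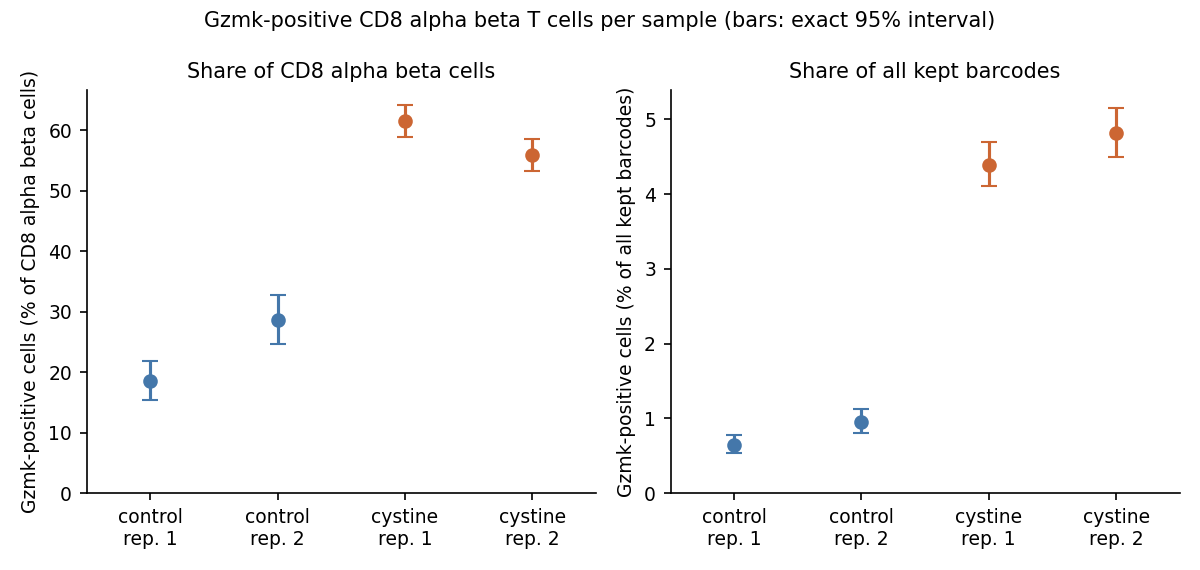
Gzmk-positive cells as a percentage of CD8 alpha beta T cells (left) and of all kept barcodes (right) in each of the 4 samples, with exact 95% intervals as bars. The control samples lie at 18.5% and 28.6% on the left and the cystine samples at 61.5% and 55.9%; on the right the controls lie below 1% and the cystine samples above 4%.

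The threshold of 1 Gzmk UMI splits a graded signal. Among members, exactly 1 Gzmk UMI was found in 59.6% and 47.6% of control cells and in 37.9% and 36.7% of cystine cells. At least 3 Gzmk UMIs were found in 14.7% and 20.4% of control members and in 32.2% and 38.0% of cystine members, so the control members sat closer to the threshold. Requiring at least 2 UMIs left shares of CD8 alpha beta cells of 7.47%, 15.0%, 38.2% and 35.4%. Just outside the rule, cells that missed only the Cd8b1 condition were the most frequent, with 814, 1688, 732 and 647 barcodes, followed by those that missed only the Gzmk condition. Cells excluded by Trdc alone numbered 45, 59, 73 and 81, and those excluded by Cd79a alone 3, 2, 125 and 23.

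Gzmk UMIs were rare in cells that should lack the gene. A Gzmk UMI was found in 1.07%, 0.344%, 0.937% and 0.509% of B cells, defined by Cd79a without Cd3 or Cd8a, at median depths between 1102 and 1274.5 UMIs. Cells with Cd8a but without Cd8b1, Trdc or Cd4 held a Gzmk UMI in 12.2%, 25.8%, 11.96% and 11.4%, and T cells with Trdc in 19.8%, 31.1%, 14.9% and 14.9%. In these innate-like populations the share with Gzmk was not higher in the cystine samples, whereas in CD8 alpha beta cells it was; this contrast was not tested beyond the values.

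Of the markers given with the members, Cd8b1 and Gzmk were in all of them by the rule and Ccl5 was in nearly all. Only a part of the members held a UMI of Ly6a, as given below, or of conventional T cell genes such as Thy1 and Cd5. Genes of innate-like cells were found as well. Ccl5, a chemokine of effector T cells, was detected in 100, 99.3, 100 and 100% of members. Thy1, a surface protein of conventional T cells, was detected in 43.1, 43.5, 61.4 and 60.6%, and Cd5, a brake on receptor signalling that natural intraepithelial cells mostly lack, in 22.0, 14.3, 19.4 and 24.4%. Itgae, the alpha E integrin that holds T cells to the epithelium, was detected in 67.0, 63.9, 55.4 and 64.5%. A T cell receptor beta variable gene was detected in 80.7%, 84.4%, 77.6% and 89.6% of members. Foxp3 of regulatory T cells had 0, 1, 1, 0 UMIs and Ncr1 of NK cells 0, 0, 3, 5. Genes of other lymphocytes were not all this low: B cell genes are summed above, and UMIs of gamma chain constant genes are given below.

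Genes that mark other CD8 states were scarce. Eomes, a T-box factor often found in Gzmk-expressing CD8 cells, had 0, 0, 3, 7 UMIs in the 4 samples. Klrg1 of terminal effector cells had 4, 2, 5, 5 and Zfp683, which encodes the residence factor Hobit, 0, 0, 7, 5. These counts were too low to compare the diets. Il22, the cytokine named in the series title, had 0 UMIs in all members, which allows a share of up to 2.75, 2.04, 0.353 and 0.375% of members with a UMI.

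A part of the members carried UMIs of innate-like T cells, and this part was larger in the controls. At least 1 UMI of Fcer1g, Tyrobp, Tcrg-C1, Tcrg-C2 or Tcrg-C4, which encode innate signalling adaptors and gamma chain constant regions, was found in 79.8% and 85.7% of control members and in 45.3% and 49.8% of cystine members. In CD8 alpha beta cells without Gzmk the share was 73.3%, 75.5%, 58.0% and 62.1%, and in Gzmk-positive Cd8a cells without Cd8b1 it was 97.7%, 96.6%, 85.1% and 88.1%. The diets did not overlap in any of these populations. Members with 0 such UMIs numbered 22, 21, 464 and 401, and among CD8 alpha beta cells with 0 such UMIs the members were 14.7% and 18.9% on the control diet but 67.5% and 62.7% on cystine. Cells with 0 such UMIs were shallower in every population and sample, with a median of 1505 against 1805 UMIs in members of control replicate 1. A count of 0 therefore does not show that a cell lacks these transcripts. The part of innate-like cells in the share was not tested.

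**Figure D2:**
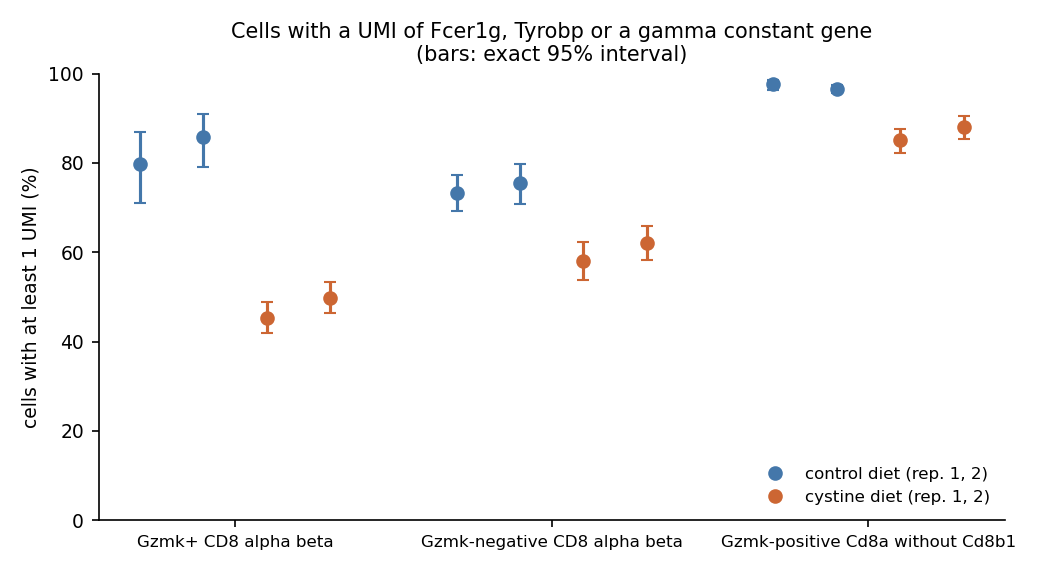
Percentage of cells with at least 1 UMI of Fcer1g, Tyrobp, Tcrg-C1, Tcrg-C2 or Tcrg-C4 in Gzmk-positive CD8 alpha beta cells, Gzmk-negative CD8 alpha beta cells and Gzmk-positive Cd8a cells without Cd8b1, per sample, with exact 95% intervals as bars. The members lie at 79.8% and 85.7% on the control diet but at 45.3% and 49.8% on cystine, and the cells without Cd8b1 lie above 85% in all 4.

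The level of several genes differed between members with and without these UMIs. Cd7 is counted here with the surface proteins of T cell activation. It was 4727, 5632, 2497 and 2629.8 CPM in members with such a UMI and 3498, 2756, 666 and 869 CPM in members without. Gzmb was 5612, 6849, 2678 and 3911 CPM with and 3556, 2554, 1065 and 2365 CPM without, and Gzma 25247, 29489.5, 16667 and 18810.3 CPM with and 14281, 12349.6, 9046 and 12844 CPM without. Ly6a, by contrast, was 53.1, 69.0, 329 and 312 CPM with and 28.9, 202, 488 and 481 CPM without, so that it was higher without them in 3 of the 4 samples. Thy1 was 371, 324, 563 and 585 CPM with and 434, 353, 770.1 and 687 CPM without, higher without in all 4. Of these members without innate-like UMIs the controls hold 22 and 21 cells, so their control levels rest on few cells.

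On the cystine diet the members had more RNA of the surface protein genes Ly6a, Thy1, Ms4a4b and Cxcr6 and less of Gzma, Gzmb, Cd7 and genes of innate-like T cells. Of 7369 genes tested with the edgeR quasi-likelihood test on UMIs summed over members, 9 were higher and 31 lower at an adjusted p under 0.05, which is 0.543% of the genes (0.122% higher and 0.421% lower). Both cystine samples lay above both controls for 21.0% of genes and below both for 20.4%, so a lack of overlap alone is common with 4 samples. A summed level cannot tell fewer cells with a transcript from less of it per cell. Levels were scaled by the trimmed mean of M-values (TMM) and fold changes are cystine over control.

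Both major granzymes fell. Gzmb was 5308 and 6439 CPM in the controls and 1827 and 3194 CPM in the cystine samples (log2 fold change -1.23, SE 0.20, adjusted p = 0.0305). Gzma was 23586 and 27968 CPM in the controls and 12474 and 15987 CPM in the cystine samples (log2 fold change -0.86, SE 0.11, adjusted p = 0.00723). For both granzymes the cystine samples lay below both controls, while in CD8 alpha beta cells without Gzmk the diets overlapped for Gzma. Among members with 0 innate-like UMIs the fold change of Gzma was -0.26 with an adjusted p of 0.561, so it was not called there. Of the 14 cytotoxic granule genes, 11 were measured, 0 rose and these 2 fell, with a median log2 fold change of -0.13 beside -0.01 over all genes. Prf1, which encodes the pore protein perforin, was 98.7 and 84.3 CPM in the controls and 83.8 and 97.7 CPM in the cystine samples (log2 fold change 0.01, SE 0.23, adjusted p = 0.997), and Nkg7, a granule membrane protein, had log2 fold change -0.13, SE 0.08, adjusted p = 0.651.

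Apart from Ccl5, which is described without a test, the chemokine and cytokine genes of the members did not pass. Ccl5 was 40491 and 48309 CPM in the controls and 31256 and 35777 CPM in the cystine samples (log2 fold change -0.41, SE 0.08), lower in both cystine samples. Ccl4, an inflammatory chemokine, was 380.2 and 409.6 CPM in the controls and 309.6 and 384 CPM in the cystine samples and did not pass (log2 fold change -0.19, adjusted p = 0.765). Xcl1, which attracts cross-presenting dendritic cells, was 237 and 157 CPM in the controls and 355 and 267 CPM in the cystine samples (adjusted p = 0.298), and its groups did not overlap. The call of Xcl1 depended on the setting: it passed with at least 2 Gzmk UMIs (1.27, adjusted p = 0.0407), when control replicate 1 (0.0339) or cystine replicate 2 was left out (0.0281), and also without a filter on low counts (0.00404) and with the replicate number as a block (0.00935). Ccl3 had a log2 fold change of -0.78 (adjusted p = 0.355). Ifng, the type II interferon, lay between 9.04 and 19.7 CPM in all 4 samples (adjusted p = 0.999). Of the 16 genes of this list 7 were measured, Ccl5 among them, with 0 called and a median of 0.01.

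Among surface and homing genes, Cxcr6, Thy1 and Ms4a4b rose with the diet. Ly6a, which encodes Sca-1 and is raised in activated T cells, was 49.4 and 96.4 CPM in the controls and 387 and 379 CPM in the cystine samples (log2 fold change 2.30, SE 0.22). A Ly6a UMI was found in 5.50, 9.52, 33.6 and 28.3% of members, or in 5.26, 9.72, 28.7 and 21.8% after thinning to 1000 UMIs, so the rise went with more cells that held the transcript. Cxcr6, the chemokine receptor that keeps memory cells in tissue, was 242 and 265 CPM in the controls and 591 and 443 CPM in the cystine samples (log2 fold change 1.02, SE 0.18, adjusted p = 0.0305). Thy1 was 385 and 346 CPM in the controls and 633 and 619.8 CPM in the cystine samples (log2 fold change 0.78, SE 0.13, adjusted p = 0.0305), and Ms4a4b, a membrane protein that modulates T cell activation, was 341 and 464 CPM in the controls and 856 and 759 CPM in the cystine samples (log2 fold change 0.98, SE 0.15, adjusted p = 0.0275). The cystine samples lay above the controls for all of these. Ssbp2, a single-stranded DNA binding protein, was 54.3 and 72.3 CPM in the controls and 169 and 183 CPM in the cystine samples (log2 fold change 1.43, adjusted p = 0.0275).

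The calls of this group varied with the cells that were included. Among members with 0 innate-like UMIs the fold change of Thy1 was 0.92 (adjusted p = 0.0776) and that of Ms4a4b 0.31 (adjusted p = 0.706), whereas Cxcr6 passed there too. With at least 2 Gzmk UMIs Thy1 (0.62, adjusted p = 0.246) and Ms4a4b (0.61, adjusted p = 0.131) were not called, and Cxcr6 was not called in cells with 1000 to 3000 UMIs (0.97, adjusted p = 0.0607). Ssbp2 was not called in these 3 settings, with an adjusted p of 0.113 with 0 innate-like UMIs, 0.0964 with at least 2 Gzmk UMIs and 0.131 in cells with 1000 to 3000 UMIs. Of the 18 surface proteins of T cell activation 16 were measured, with a median of 0.30. Beside Ly6a, which is a description, Thy1 rose and Cd7 fell. Of the 14 tissue residence genes 12 were measured, 1 rose (Cxcr6) and 0 fell, with a median of 0.11. Itgae was 741 and 635 CPM in the controls and 639 and 737 CPM in the cystine samples (log2 fold change 0.01, SE 0.13, adjusted p = 0.995), and Cd69, an early activation and retention molecule, had log2 fold change 0.10, SE 0.20, adjusted p = 0.937. Both differences were smaller than the spread between samples.

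**Figure D3:**
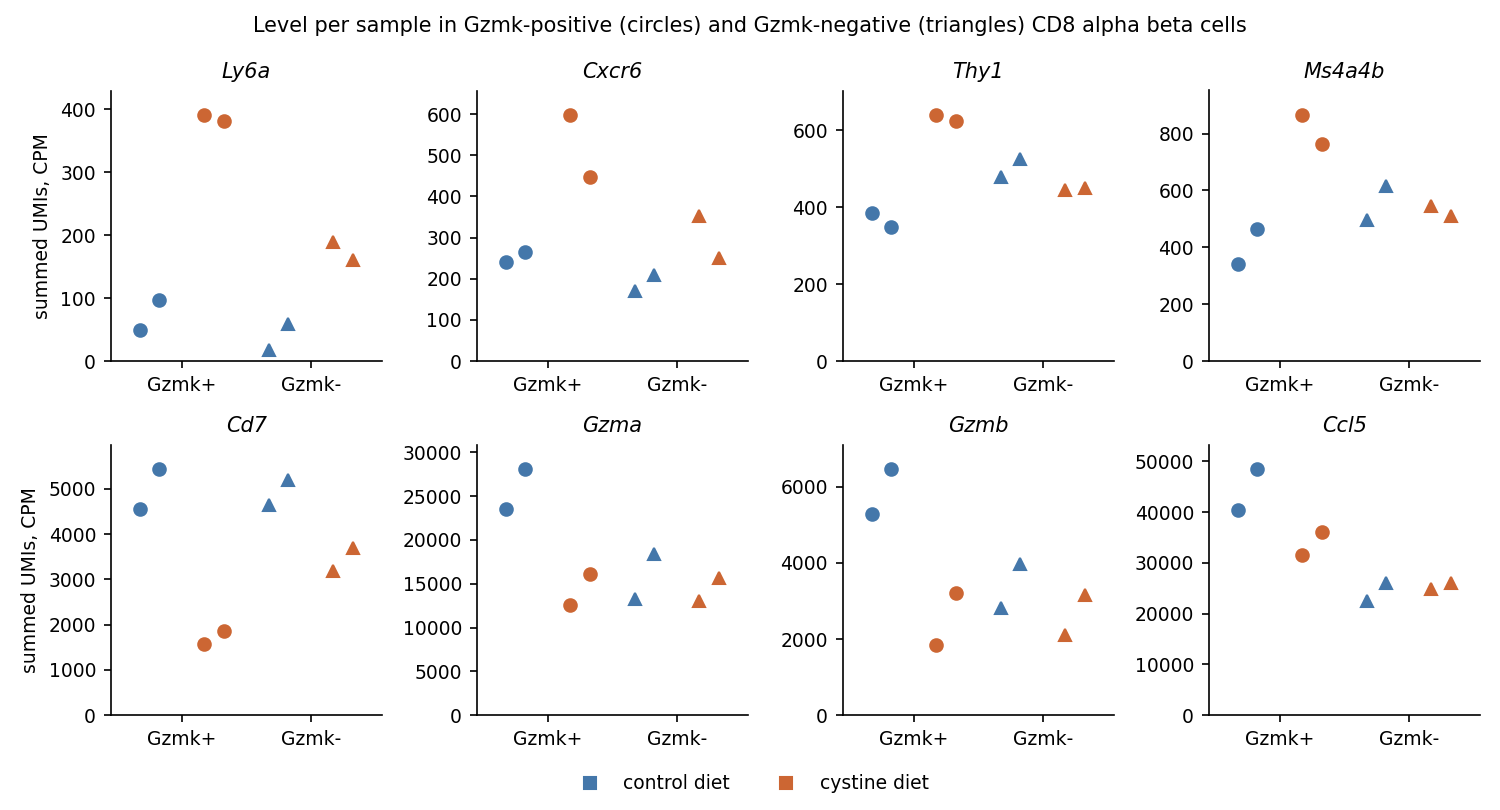
Level in CPM of 8 genes in each sample, for Gzmk-positive (circles) and Gzmk-negative (triangles) CD8 alpha beta cells, with controls in blue and cystine samples in orange and each axis starting at 0. In members, Ly6a, Cxcr6, Thy1 and Ms4a4b are higher and Cd7, Gzma, Gzmb and Ccl5 lower in both cystine samples, while the diets overlap in Gzmk-negative cells for Gzma, Gzmb, Ccl5 and Ms4a4b.

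Cd7 had the smallest adjusted p of all genes tested. It was 4557 and 5412 CPM in the controls and 1555 and 1840.3 CPM in the cystine samples (log2 fold change -1.56, SE 0.11, adjusted p = 8.75e-05), and it passed under every one of the 14 alternatives, including members with 0 innate-like UMIs. Fcer1g, which encodes the common gamma chain of Fc receptors and serves as an adaptor in innate-like T cells, was 879 and 1027 CPM in the controls and 602 and 434 CPM in the cystine samples (log2 fold change -0.89, SE 0.16, adjusted p = 0.0326). Tyrobp, the DAP12 adaptor, was 568 and 741 CPM in the controls and 543 and 359 CPM in the cystine samples, lower in both cystine samples but without a call (log2 fold change -0.55, adjusted p = 0.392); it was called without cystine replicate 1 (-0.86, adjusted p = 0.00531) and with the replicate number as a block (0.000519). Ikzf2, which encodes the transcription factor Helios, was 252 and 205 CPM in the controls and 107 and 86.2 CPM in the cystine samples (log2 fold change -1.22, adjusted p = 0.0305). Lgals3, which encodes the sugar-binding protein galectin-3, was 168 and 157 CPM in the controls and 57.3 and 50.9 CPM in the cystine samples (log2 fold change -1.57, adjusted p = 0.00981). Cd200r1, an inhibitory receptor, was 148 and 129.5 CPM in the controls and 45.9 and 60.4 CPM in the cystine samples (log2 fold change -1.36, adjusted p = 0.0305). Lgals3 and Cd200r1 were not called with at least 2 Gzmk UMIs (adjusted p = 0.0964 and 0.124) or with 0 innate-like UMIs (0.57 and 0.0804).

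Of the 15 natural intraepithelial T cell genes 11 were measured, 0 rose and 5 fell (Ddc, Ikzf2, Capn3, Fcer1g and Kit), with a median of -1.22. With at least 2 Gzmk UMIs these 5 were not called: the log2 fold change was -1.42 for Ddc (adjusted p = 0.17), -0.77 for Ikzf2 (0.46), -1.15 for Capn3 (0.211), -0.25 for Fcer1g (0.816) and -1.76 for Kit (0.381). Fcer1g was also not called under the stricter cell filter of 800 genes and 5% mitochondrial UMIs (-0.65, adjusted p = 0.123). Ikzf2 (0.59) and Capn3 (0.237) were not called among members with 0 innate-like UMIs. Ddc, which encodes an amino acid decarboxylase, was 118 and 117 CPM in the controls and 39.4 and 40.0 CPM in the cystine samples (log2 fold change -1.57, adjusted p = 0.0192). The gamma chain constant genes Tcrg-C1 and Tcrg-C4 fell by 1.35 and 1.37 on the log2 scale, of 3 measured, and Tcrg-C1 was not called with at least 2 Gzmk UMIs (adjusted p = 0.064). These 2 lists overlap with the genes used above to mark innate-like UMIs. The share of members with such UMIs moved with these genes, and its part in their differences was not tested beyond the split above. Capn3 (-1.38), Tcrg-C4, Cited4 (-1.33) and Gm30054 (-1.39) were not called without control replicate 2, with adjusted p of 0.258, 0.131, 0.201 and 0.262. Kit, a growth factor receptor, was 59.2 and 45.2 CPM in the controls and 7.88 and 12.9 CPM in the cystine samples (log2 fold change -2.26, SE 0.41, adjusted p = 0.0384), and its adjusted p was 0.0671, 0.264 and 0.181 without control replicate 1, cystine replicate 1 and cystine replicate 2.

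**Figure D4:**
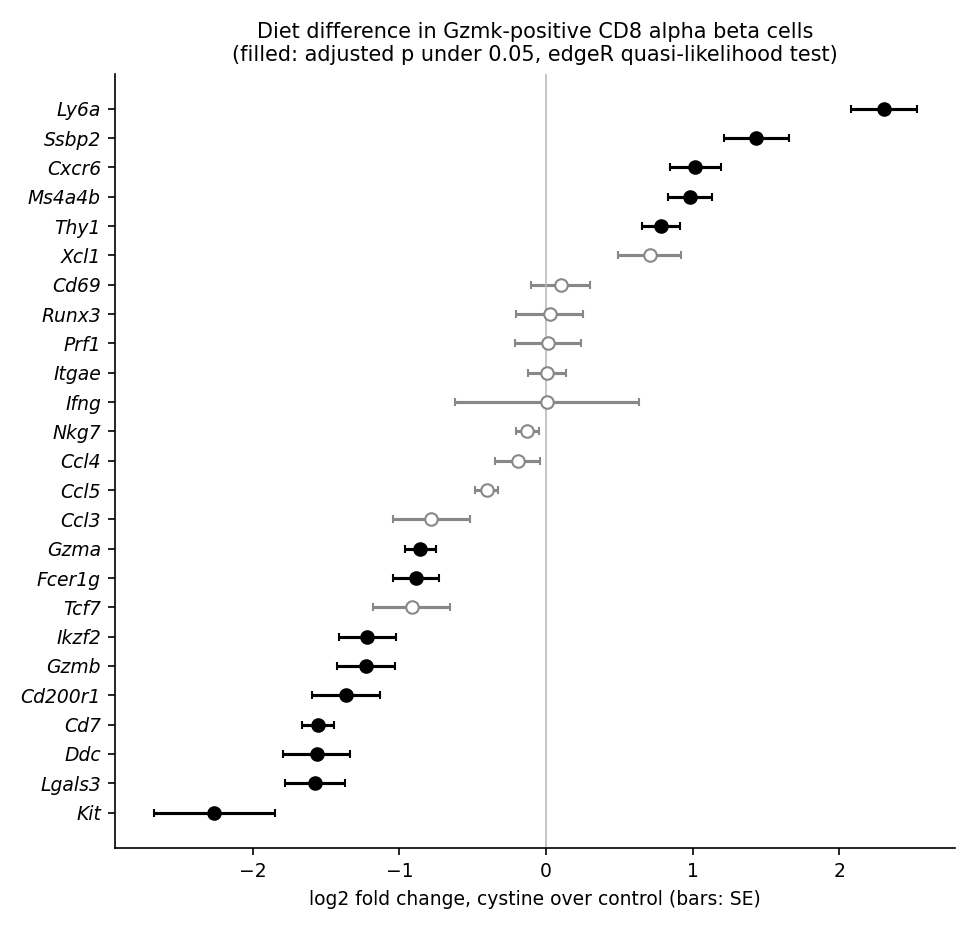
Log2 fold change, cystine over control, of 25 genes in Gzmk-positive CD8 alpha beta cells, with bars for the standard error; filled points passed an adjusted p of 0.05 and open points did not. Ly6a stands highest at 2.30 and Kit lowest at -2.26, and Prf1, Itgae and Ifng lie at 0.01. The points of Ly6a and Ccl5 are a description, and their fill is not read as a test.

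Gene groups of memory, metabolism and signalling had no called member. Tcf7, a factor of memory and naive T cells, was 69.1 and 105 CPM in the controls and 45.1 and 50.9 CPM in the cystine samples (log2 fold change -0.92, adjusted p = 0.248), with both cystine samples lower. Pdcd1, the inhibitory receptor PD-1, was 24.7 and 15.1 CPM in the controls and 39.4 and 38.0 CPM in the cystine samples (log2 fold change 1.04, adjusted p = 0.426). Of the 23 genes of cystine uptake, glutathione and coenzyme A synthesis 15 were measured and 0 passed, with a median of -0.30. Slc7a11, the cystine side of the cystine-glutamate exchanger, had 0 UMIs in all members. All 20 oxidative phosphorylation genes were measured and 0 passed, with a median of -0.22 and all 20 below 0. Of the interferon response genes 12 of 15 were measured with 0 called (median 0.32), and all 22 ribosomal protein genes with 0 called (median -0.05).

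The remaining lists were likewise without a call. Measured members were 13 of 14 (median -0.03) for T cell receptor signalling, 11 of 14 (median 0.01) for memory and effector regulators, 7 of 14 (median 0.35) for circulation and lymph node homing, and 8 of 12 (median -0.63) for inhibitory receptors. For cycling genes they were 9 of 13 (median -0.04), for heat shock genes 8 of 10 (median 0.18) and for immediate early genes 8 of 12 (median -0.35). Of the 32 genes followed by name, 27 were measured, 3 rose, 4 fell and 20 did not pass, with log2 fold changes between -0.92 and 1.04 among the latter.

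Several called genes belong to other cell types. Defa24, a Paneth cell defensin gene, was at 0 in each control, against 299 and 590 UMIs on cystine, and was at least 27.1-fold higher, counting 3 UMIs for each control. AY761184 and Gm14851, both also at 0 in the controls, were at least 6.04-fold and 6.21-fold higher. The Paneth and goblet cell genes were higher on cystine in Gzmk-negative CD8 alpha beta cells as well (46.7, 32.3, 574 and 874 CPM) and in Gzmk-positive Cd8a cells without Cd8b1 (29.1, 65.8, 408 and 940.2 CPM). In the other direction, 1 barcode of control replicate 2 with 20897 UMIs held 355 of 355 Reg3b and 82 of 82 Lgals4 UMIs of that sample's members. Reg3b (-3.93), Lgals4 (-3.46), Phgr1 (-3.59) and Smim24 (-2.03) of the gut epithelium were called lower on cystine and were not called without control replicate 2, with adjusted p of 0.17, 0.641, 0.595 and 0.323. Phgr1 was also not called without cystine replicate 1 (0.339) or 2 (0.288). The macrophage gene C1qb (-5.70) had 29 of 40 UMIs of control replicate 2 in 1 barcode of 3905 UMIs. Leaving out single samples gave between 43 and 121 called genes in all.

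Within the same samples, members were compared with CD8 alpha beta cells that had 0 Gzmk UMIs. Members had more RNA of Ccl5, Ly6a, Cxcr6, Car2 and Fasl and less of Tcf7, Fcer1g and, at low counts, Ccr7. Of 7260 genes, 24 were higher and 35 lower in members (0.813%; 0.331% and 0.482%), and 7.67% of genes were higher and 9.28% lower in all 4 samples. Cells with few transcripts of Gzmk can lack a UMI by chance, so the Gzmk-negative class may hold cells that express it. Median depth was 1676.5, 1848, 1280 and 1605 UMIs in Gzmk-negative cells, below that of members in every sample.

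Ly6a was 17.8, 59.1, 189 and 161 CPM in Gzmk-negative and 49.6, 96.7, 391 and 381 CPM in Gzmk-positive cells (log2 fold change 1.11, SE 0.10), and Ccl5 was 22468, 25951, 24904 and 26064 CPM in Gzmk-negative and 40705, 48452, 31576 and 35890.3 CPM in Gzmk-positive cells (log2 fold change 0.64, SE 0.07). Both were higher in members in all 4 samples. Cxcr6 was 171, 208, 352 and 250.2 CPM in Gzmk-negative and 243, 266, 597 and 445 CPM in Gzmk-positive cells (log2 fold change 0.68, SE 0.09, adjusted p = 0.000104), and Car2, which encodes carbonic anhydrase 2, was 351, 404, 428 and 385 CPM in Gzmk-negative and 511, 646, 609 and 661 CPM in Gzmk-positive cells (log2 fold change 0.64, SE 0.07, adjusted p = 1.83e-05). Fasl, the death ligand of killer cells, was 111, 151, 179 and 124 CPM in Gzmk-negative and 228, 205, 237 and 198 CPM in Gzmk-positive cells (log2 fold change 0.60, SE 0.11, adjusted p = 0.00383). All 3 were higher in members in every sample, and Lgals1 (galectin-1, log2 fold change 1.03), S100a6 (0.97), Rgs1 (0.47), Emp3 (0.55) and Cd5 (0.53) were called higher too. Of 11 cytotoxic granule genes measured, 2 rose (Fasl and Nkg7) and 0 fell, with a median of 0.29 beside 0.00 over all genes. Gzma (0.35, adjusted p = 0.0828), Gzmb (0.36, adjusted p = 0.203) and Prf1 (0.44, adjusted p = 0.247) did not pass.

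Tcf7 was 144, 153, 85.9 and 107 CPM in Gzmk-negative and 69.5, 106, 45.6 and 51.1 CPM in Gzmk-positive cells (log2 fold change -0.90, SE 0.14, adjusted p = 0.000703). Ccr7, the receptor for entry into lymph nodes, was 15.5, 32.4, 35.4 and 15.6 CPM in Gzmk-negative and 14.9, 0, 2.17 and 0.681 CPM in Gzmk-positive cells (log2 fold change -3.45, SE 0.53, adjusted p = 0.000742). Both were lower in members in every sample, and they were the 2 called genes of 10 measured for circulation and lymph node homing. The level of Ccr7 in members rests on few UMIs, and in control replicate 1 the classes were nearly equal (15.5 against 14.9 CPM). Bcl2, which keeps memory cells alive, and Id3, an inhibitor of E proteins, dropped by 0.48 and 0.68 on the log2 scale, 2 of 11 memory and effector regulators measured. Fcer1g was 959.5, 1392, 1411 and 946 CPM in Gzmk-negative and 883, 1030.1, 608 and 435 CPM in Gzmk-positive cells (log2 fold change -0.80, SE 0.11, adjusted p = 0.000285), with the cystine samples further apart than the controls. Of 12 natural intraepithelial genes measured 5 were lower (Fcer1g, Ddc, Ikzf2, Capn3 and Tyrobp) and 1 higher (Scin, an actin-severing protein), with a median of -0.68. Xcl1 was 564, 467, 367 and 386 CPM in Gzmk-negative and 238, 157, 358 and 268 CPM in Gzmk-positive cells (log2 fold change -0.64, SE 0.14, adjusted p = 0.0219).

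Several of these calls rested on single samples. The count of called genes was 41, 126, 15 and 13 without control replicate 1, control replicate 2, cystine replicate 1 and cystine replicate 2. Cxcr6 and Car2 were called in each of these 4 fits. Without cystine replicate 2 the adjusted p was 0.173 for Fasl, 0.0997 for Lgals1, 0.0712 for Tcf7, 0.0565 for Fcer1g and 0.177 for Xcl1, and 0.437 for Emp3, 0.203 for Rgs1, 0.272 for Cd5, 0.194 for Ddc, 0.272 for Ikzf2, 0.34 for Capn3, 0.571 for Tyrobp, 0.34 for Bcl2 and 0.446 for Id3. Without cystine replicate 1 it was 0.146 for Ccr7, 0.0516 for Fcer1g and 0.262 for Bcl2, and 0.272 for S100a6, 0.0531 for Rgs1, 0.385 for Cd5, 0.141 for Ddc, 0.15 for Ikzf2, 0.29 for Capn3, 0.579 for Tyrobp and 0.141 for Id3. Without control replicate 1 it was 0.135 for S100a6, 0.214 for Xcl1 and 0.0827 for Id3. Scin was called in none of the 4 fits, with adjusted p of 0.16, 0.0688, 0.232 and 0.0712. In cells with 0 innate-like UMIs 11 genes were called, among them Car2, Gzma (1.25, adjusted p = 7.51e-07) and Gzmb (0.88, adjusted p = 0.000239), while Cxcr6 (0.45, adjusted p = 0.727) and Fasl (adjusted p = 0.441) were not.

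Levels by number of Gzmk UMIs are given as a description. From 0 through 1 and 2 to at least 3 Gzmk UMIs, Ccl5 in control replicate 1 was 22486, 37389, 39799 and 50825 CPM and in control replicate 2 24824, 47257, 40854 and 50747 CPM, so the latter was lower with 2 than with 1. In members with exactly 1 Gzmk UMI Ccl5 was 37389, 47257, 30638 and 31551 CPM in the 4 samples, and in those with at least 3 it was 50825, 50747, 34912 and 42323 CPM. Fcer1g was 960.3, 1332, 1473 and 967 CPM with 0 Gzmk UMIs. It was 1209.6, 1375, 678 and 532 CPM with exactly 1 and 276, 349, 589 and 397 CPM with at least 3, so that it was higher with 1 than with 0 in both controls and lower in both cystine samples, and with at least 3 the controls no longer lay above the cystine samples. Ly6a was 25.2, 51.4, 402 and 360.3 CPM with exactly 1 and 0, 155, 423 and 369 CPM with at least 3, and Gzma 24671, 26392, 11195 and 14327 and 24784, 23474, 15519 and 19989 CPM. Ly6a with 2 was 133, 103, 387 and 448 CPM, and it had no steady order over the classes. Median depth was 1934.5, 2112 and 1830 UMIs in control replicate 2 with 1, 2 and at least 3 Gzmk UMIs, and the control classes hold few cells, 16 and 30 with at least 3.

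**Figure D5:**
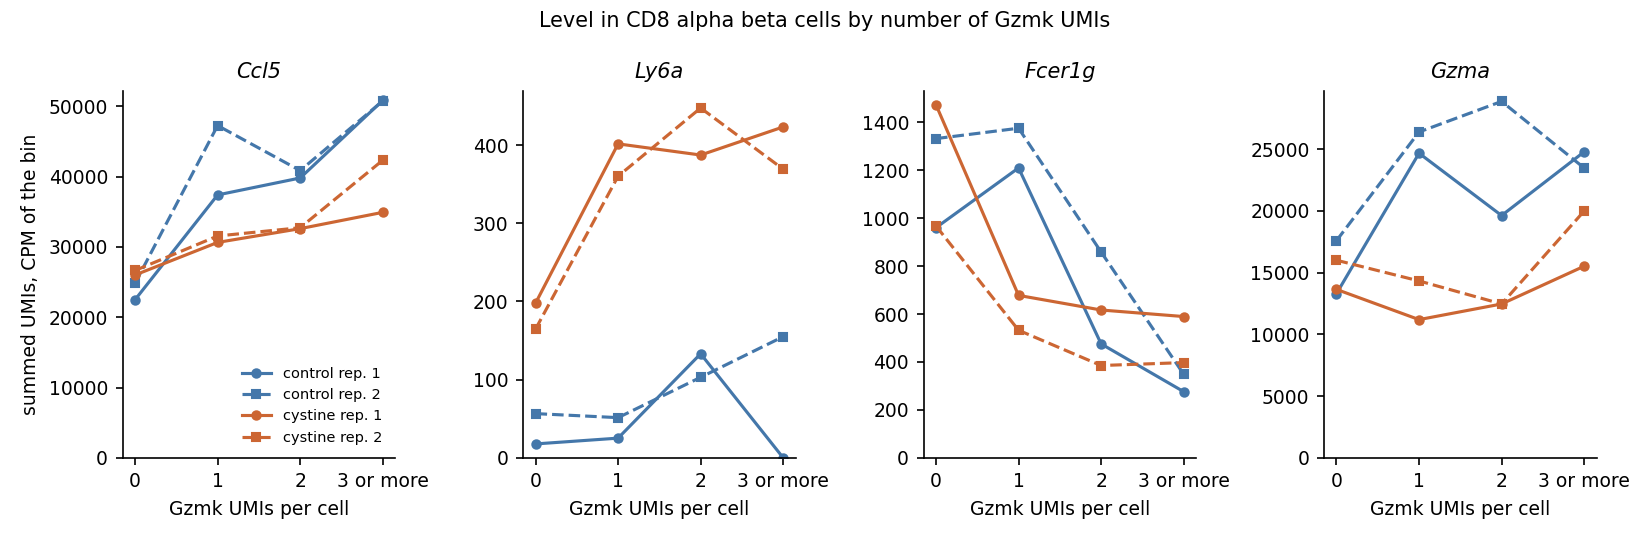
Level in CPM of Ccl5, Ly6a, Fcer1g and Gzma in CD8 alpha beta cells with 0, 1, 2 or at least 3 Gzmk UMIs, 1 line per sample (controls blue, cystine orange; replicate 1 solid, replicate 2 dashed). Ccl5 is higher with at least 3 than with 0 Gzmk UMIs in all 4 samples, and Fcer1g is lower.

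Whether the diet difference was itself different in members and in Gzmk-negative cells was tested as an interaction. Of 7987 genes 38 passed (0.476%), 14 with a diet difference more positive in members (0.175%) and 24 with one more negative (0.3%). The granzymes, Cd7 and the innate adaptors were more negative in members, and Thy1, Ms4a4b and Xcl1 more positive. Gzma in Gzmk-negative cells was 13296, 18394, 13071 and 15692 CPM, with overlap between the diets, against a fall in members (interaction -0.72, SE 0.05, adjusted p = 2.5e-09). Gzmb in Gzmk-negative cells was 2806, 3964, 2117 and 3153 CPM (interaction -0.88, adjusted p = 4.05e-08). Cd7 fell in both classes, from 4647 and 5193 CPM to 3179.9 and 3681 CPM in Gzmk-negative cells, and further in members (interaction -1.02, adjusted p = 5.29e-11).

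Thy1 in Gzmk-negative cells was 479, 525, 445 and 451 CPM, so that it was lower in the cystine samples there and higher in members (interaction 0.97, adjusted p = 0.000297). Ms4a4b in Gzmk-negative cells was 496, 617, 545 and 508 CPM, with overlap (interaction 1.08, adjusted p = 1.16e-05). Xcl1 was 564, 468, 368 and 387 CPM in Gzmk-negative cells and 236, 157, 358 and 269 CPM in members, in opposite directions (interaction 1.13, adjusted p = 0.00277). Xcl1 was not called in cells with 1000 to 3000 UMIs (0.32, adjusted p = 0.821) or without the 5% of barcodes with most UMIs (0.55, adjusted p = 0.271). With 0 innate-like UMIs neither Ms4a4b (0.47, adjusted p = 0.586) nor Gzmb (-0.43, adjusted p = 0.353) was called, and with at least 2 Gzmk UMIs Fcer1g was not (-0.20, adjusted p = 0.922). For Cxcr6 the interaction did not pass (0.38, adjusted p = 0.636). Ly6a, with a difference of 0.25 between the classes, and Cxcr6 were both higher in each cystine sample than in each control in both classes. Of 13 natural intraepithelial genes measured 4 passed, all more negative in members, beside 0 of 17 genes of cystine uptake, glutathione and coenzyme A. The share of cells with innate-like UMIs also differed by diet and class, as given above.

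The rule separates members from other Gzmk-positive Cd8a cells by Cd8b1 alone, and these cells differed widely. Cells with few transcripts of Cd8b1 can lack a UMI by chance, so the class without Cd8b1 may hold CD8 alpha beta cells. Of 8373 genes 504 were higher and 518 lower in members (12.2%; 6.02% and 6.19%), and 13.3% were higher and 16.1% lower in all 4 samples. Thy1 was 98.7, 75.9, 171 and 153 CPM without Cd8b1 and 387, 352, 644 and 632 CPM in members (log2 fold change 2.03, SE 0.09, adjusted p = 6.87e-12), and Cd5 was 9.23, 2.5, 53.7 and 40.5 CPM without Cd8b1 and 213, 85.6, 162 and 199 CPM in members (log2 fold change 2.63, SE 0.30, adjusted p = 3.83e-06). Il7r, the receptor of the survival cytokine IL-7, was 53.3, 62.2, 59.9 and 51.0 CPM without Cd8b1 and 208, 189.5, 238 and 269 CPM in members (log2 fold change 2.0, SE 0.13, adjusted p = 2.17e-09). These genes of conventional T cells were higher in members in every sample, as were Cd2 (2.77), Ms4a4b (2.63), S100a6 (2.81), Tcf7 (2.08), Pdcd1 (2.27) and Xcl1 (1.57). Of 16 surface proteins of T cell activation measured 10 were higher and 4 lower, of 11 interferon response genes 9 were higher and 0 lower, and all 22 ribosomal protein genes were higher, with a median of 0.42.

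Fcer1g was 3050.5, 3317, 3086 and 3219 CPM without Cd8b1 and 883, 1042, 612 and 442 CPM in members (log2 fold change -2.20, SE 0.12, adjusted p = 3.21e-10). Gzma was 41957, 52405, 35822 and 43628 CPM without Cd8b1 and 23706, 28388, 12689 and 16298 CPM in members (log2 fold change -1.16, SE 0.08, adjusted p = 9.28e-09), and Gzmb had log2 fold change -1.11, SE 0.11, adjusted p = 4.47e-07. All 3 were lower in members in every sample. Of 12 natural intraepithelial genes measured 10 were lower and 1 higher, with a median of -1.29 beside -0.01 over all genes, and of 12 cytotoxic granule genes 5 were lower and 0 higher. Receptors of innate-like cells such as Klra5 (-2.41), Klrb1a (-2.02) and Cd200r2 (-2.16) were lower too, as was the adaptor Clnk (-2.0). Prf1, Ifng, Cd69, Runx3, Nkg7, Ccl4, Tbx21 and Cd27 did not pass, with log2 differences between -0.29 and 0.34. Among cells with 0 innate-like UMIs the edgeR test called 0 of 1349 genes, 84 of them at an unadjusted p under 0.05; no other tool was run on those cells, whose number is small in the controls.

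The most frequent receptor variable genes of members differed from sample to sample, also within a diet. Of the cells with a beta variable gene, the most frequent was Trbv3 in control replicate 1 (31.8%), Trbv13-2 in control replicate 2 (19.4%), Trbv12-2 in cystine replicate 1 (14.4%) and Trbv13-1 in cystine replicate 2 (16.9%). Among members with exactly 1 alpha and 1 beta variable gene, the pair Trbv3 and Trav8d-2 was found in 8 of 28 cells of control replicate 1 and in 24 of 124 Gzmk-negative cells of the same sample. Trbv29 and Trav7-4 was found in 5 of 40 members of control replicate 2, and Trbv12-2 and Trav8-1 in 12 of 167 members of cystine replicate 1 and 4 of 91 Gzmk-negative cells. Trbv15 and Trav13-1 was found in 25 of 233 members of cystine replicate 2 and 6 of 138 Gzmk-negative cells. The number of distinct pairs was 19, 31, 91 and 111, of which 16, 26, 56 and 71 were seen once. Shared variable genes are not shared clones, since the joined sequences were not used here, and the controls have too few paired cells to compare their diversity with that of the cystine samples.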

How the data were processed

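Per the labels' protocols, single CD45+ cells went through a 10x Genomics 5' library with 18000 cells loaded per sample. The authors deposited raw UMI counts for 32285 genes in each barcode. Cell Ranger 3.1.0, Seurat 4.0.1 and build GRCm39 are named in the submitters' processing notes, and the matrix headers name software 7.0.1. No gene coordinates are given except RefSeq windows. The members, gene lists, tests and alternatives were chosen with earlier results of these data known.

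UMI counts were summed per sample and class and fitted with edgeR 4.0.16 (R 4.3.3; filterByExpr, TMM, glmQLFit, glmQLFTest), with Benjamini-Hochberg adjustment over all genes tested and a threshold of 0.05. The diet fit had 4 sums and no block; the other fits had 8 sums and the sample as a block. The 10 rule genes stayed in the library size and were not tested. The filter kept 7369 of 32285 genes in the diet fit. Fits were tested on simulated data, drawn with the means and dispersions of these same libraries. Such data cannot show how the error rate holds between animals. Shares carry exact Clopper-Pearson 95% intervals, and a count of 0 is given a limit of 3 counts. Doublets were not called; leaving out the 5% of barcodes with most UMIs was an alternative. The replicates differed by more than sampling noise (chi-square per degree of freedom 1.66 and 2.52).

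Genes were named when they passed, had at least 50 CPM in one group and did not overlap (diet) or moved alike in all 4 samples: the 12 highest and 12 lowest fold changes for diet and class, 8 and 8 for the comparison without Cd8b1 and 6 and 6 for the interaction, plus up to 4 called members of each of 24 lists and 32 fixed genes. Alternatives were DESeq2 (1.42.0) size factors and Wald test, no filter, a replicate block, omission of receptor genes, cell filters, at least 2 Gzmk UMIs, each replicate left out and, chosen after seeing the data, cells with 0 innate-like UMIs.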

Additional observations from a re-analysis of the deposited data

Results flagged for a closer look

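The diet difference differed between Gzmk-positive and Gzmk-negative CD8 alpha beta cells for the genes below by the interaction test (edgeR, adjusted p under 0.05). Values are log2 differences of the diet effect, positive where it was more positive in members. Killer cell genes were Gzma (-0.72) and Gzmb (-0.88); the value of Ccl5 (-0.47), a marker named with the cells, is a description only. Innate-like genes were Fcer1g (-0.86), Tyrobp (-1.10), Tcrg-C1 (-1.12), Ikzf2 (-0.99) and Kit (-2.09). T cell surface and chemokine genes were Cd7 (-1.02), Thy1 (0.97), Ms4a4b (1.08), Xcl1 (1.13) and Ccl3 (-1.77). Interferon-related genes were Ly6e (0.39) and Ifit3 (3.99), and ribosomal protein genes were Rps24 (0.29), Rpsa (0.25) and Rpl18 (0.26). Ifit3 was too low to be kept by the count filter when the 2 classes were compared. It was the 1 gene that passed of 12 interferon response genes measured for the interaction. The others were Pea15a (2.11), Ssbp2 (1.34) and Vps37b (-1.72).

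Epithelial and antigen-presenting genes were Reg3b (-4.45), Reg3g (-4.34), Lgals4 (-3.59), Cd74 (-0.93) and H2-Aa (-1.23). For Reg3g, 139 of 140 UMIs in members of control replicate 2 came from the 1 deep barcode named above.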

How the results depend on the processing

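The share of members kept its direction under all 9 alternatives for each denominator. The diet comparison called 40 genes, 195 without a filter on low counts, and 43 to 121 when 1 sample was left out. With at least 2 Gzmk UMIs 29 of 6101 genes were called for diet, and 15 of these were among the 40. In cells with 0 innate-like UMIs 56 of 4662 genes were called, and 12 of these were among the 40. With the replicate number as a block 178 genes were called. The main fit had no block because the labels do not say that replicate numbers mark pairs. Deviations of same-numbered samples correlated at 0.0484, a value that counting noise can lower, so it does not settle pairing. Against Gzmk-negative cells 59 genes were called, 9 with the DESeq2 Wald test, 110 without a filter, 11 in cells with 0 innate-like UMIs and 13 to 126 with 1 sample left out. The interaction had 38 calls, 10 with the Wald test, 120 without a filter, 99 without the 5% of barcodes with most UMIs and 31 to 102 with 1 sample left out. Against cells without Cd8b1 there were 1022 calls, 513 with the Wald test, 319 with at least 2 Gzmk UMIs, 0 in cells with 0 innate-like UMIs (1349 genes tested) and 464 to 1246 with 1 sample left out. Where 1 sample was left of a group, it was assumed to vary like the others. DESeq2 size factors moved the median of all genes by less than 0.1.

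Some fold changes changed sign. For diet, with 1000 to 3000 UMIs per cell, these were Reg3b (0.53), Prf1 (-0.28) and Itgae (-0.15). Without the deepest 5% they were Reg3b (0.61), Lgals4 (0.026), Prf1 (-0.24), Ifng (-0.16), Itgae (-0.15) and Runx3 (-0.027). With at least 2 Gzmk UMIs they were Ccl4 (0.13), Nkg7 (0.0082) and Tyrobp (0.28), and without innate-like UMIs Ccl4 (1.60) and Nkg7 (0.22). By the Wald test they were Prf1 (-0.0016) and Ifng (-0.064). With 1 sample left out, the fold change ranged from -0.10 to 0.14 for Prf1, from -0.55 to 0.54 for Ifng, from -0.09 to 0.13 for Itgae and from -0.26 to 0.54 for Runx3. For the interaction, with 1000 to 3000 UMIs, they were Reg3g (1.29), Cd74 (1.95), Lgals4 (1.07), H2-Aa (1.17) and Ly6a (-0.34), and without the deepest 5% Reg3g (0.87), Cd74 (0.027) and Ly6a (-0.039). Ly6a also turned with at least 2 Gzmk UMIs (-0.20) and ranged from -0.31 to 0.45 with 1 sample left out. Against cells without Cd8b1, in cells with 0 innate-like UMIs, they were Il7r (-0.37), Cxcr6 (-0.048), Cxcr3 (-0.25) and Ccr9 (-0.086). The cause of each change was not tested. The 109 and 147 control members limit what can be seen of rare transcripts.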
